A study of Mus musculus with 8 samples.

Results

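Natriuretic peptide and cGMP signalling genes were described in BNP-injected mouse cheek skin. They were chosen by gene symbol, and they are 10 of the 18901 genes measured. They were the peptide genes Nppa, Nppb and Nppc, the receptor genes Npr1, Npr2 and Npr3, the processing protease gene Corin, the cGMP-dependent kinase genes Prkg1 and Prkg2 and the phosphodiesterase gene Pde5a. RNA from 4 TBX20fl/fl;K14-Cre mice was compared with RNA from 4 TBX20fl/fl littermates, 1 library per mouse. All 8 mice were female, 7 weeks old and carried floxed Tbx20 alleles on a C57BL/6 background, with Cre driven by the K14 promoter of basal keratinocytes in the first group alone. All 8 received 10 µg of BNP into the cheek, were filmed for 30 min and were killed 5 h later for skin collection. No vehicle group was analysed here, so the values describe injected skin and not the response to the injection. Whole skin was sequenced, in which less RNA per cell and fewer cells of a type cannot be told apart, and in which cells other than keratinocytes keep an intact Tbx20.

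Natriuretic peptides are hormones that share a ring closed by a disulphide bond. ANP, the product of Nppa, and BNP, the product of Nppb, activate the guanylyl cyclase receptor encoded by Npr1, while CNP, the product of Nppc, activates the one encoded by Npr2. Both receptors make cGMP, which activates the kinases encoded by Prkg1 and Prkg2 and is broken down by phosphodiesterases such as that of Pde5a. The receptor of Npr3 has no cyclase and clears the peptides from the tissue, and the protease of Corin cuts the ANP precursor. BNP also acts as an itch transmitter of sensory neurons, and the study asked whether the transcription factor TBX20 controls Npr1 in the skin.

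The shared ring is seen in the coding stretches of Nppb and Nppc, which are shown because Nppb encodes mouse BNP and Nppc the ligand of the other cyclase receptor. The sources used here do not give the species of the injected BNP. Both stretches were read from the GENCODE vM21 transcripts of GRCm38. Each holds 51 bases (17 codons), lies in exon 2 of 3 and is given 5′ to 3′ on the coding strand, with capitals for the 40 bases that are the same in both.
Nppb, chr4:147986464-147986514 (+): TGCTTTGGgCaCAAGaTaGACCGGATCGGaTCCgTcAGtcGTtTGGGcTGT
Nppc, chr1:86669667-86669717 (-): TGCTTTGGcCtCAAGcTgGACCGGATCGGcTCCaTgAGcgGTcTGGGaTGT
Nppb (chr4:147985786-147987205) and Nppa (chr4:148000722-148002074) are neighbours on the plus strand with 13516 bases between them, and Nppc is at chr1:86666293-86670573.

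The study names AGGTGTG as a TBX20 binding motif in human NPR1. It was searched on both strands in the mouse promoter windows of RefSeq, build GRCm38.p6, which run from 250 bases before to 50 bases after a start site. Windows were found for 9 of the 10 genes, 10 windows in all, because Prkg1 has windows at separate start sites. The motif was in 1 of these 10 windows, that of Nppa, and in 5.84% of all 32851 windows. The windows shown are in lower case with a match in capitals (as its reverse complement CACACCT), for Nppa with the match and for Npr1 and Npr2, the genes of the cyclase receptors.
Nppa, chr4:148000472-148000771 (+): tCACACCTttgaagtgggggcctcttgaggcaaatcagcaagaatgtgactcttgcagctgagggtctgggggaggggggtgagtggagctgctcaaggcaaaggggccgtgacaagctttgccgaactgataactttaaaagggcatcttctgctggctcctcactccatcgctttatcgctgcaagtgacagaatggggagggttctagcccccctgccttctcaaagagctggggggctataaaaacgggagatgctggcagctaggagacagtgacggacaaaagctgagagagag
Npr1, chr3:90465817-90466116 (-): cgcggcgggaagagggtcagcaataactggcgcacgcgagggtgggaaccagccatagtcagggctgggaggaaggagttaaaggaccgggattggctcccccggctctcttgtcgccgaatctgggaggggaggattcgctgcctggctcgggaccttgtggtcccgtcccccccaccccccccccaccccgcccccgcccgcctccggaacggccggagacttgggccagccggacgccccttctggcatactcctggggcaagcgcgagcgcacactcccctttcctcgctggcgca
Npr2, chr4:43631685-43631984 (+): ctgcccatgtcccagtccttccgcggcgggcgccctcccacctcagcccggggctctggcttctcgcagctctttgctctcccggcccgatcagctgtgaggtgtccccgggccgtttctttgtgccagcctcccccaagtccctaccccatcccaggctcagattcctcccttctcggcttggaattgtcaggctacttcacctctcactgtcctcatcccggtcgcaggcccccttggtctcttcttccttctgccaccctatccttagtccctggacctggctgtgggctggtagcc
The match of Nppa began 249 bases before its start site, near the far edge of the window, and the Npr2 window lies within the RefSeq span of its gene. The Npr1 and Npr2 windows held no match, which says only that these letters are not in these 300 bases. A match is a run of letters and no measured binding.

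The total of the estimated counts was 16056282 to 19880654 per mouse, at which 3 counts correspond to 0.151 to 0.187 CPM (counts scaled to the library total). The targeted gene, Tbx20, reached no more than 2 counts in any TBX20fl/fl;K14-Cre mouse and 3 in any TBX20fl/fl mouse, and at this depth whole skin could not show its deletion. Replicate 2 of the TBX20fl/fl mice stood apart from the other 7: its TMM scaling factor was 0.7348 against 1.007 to 1.075, and genes with short transcripts were high and genes with long transcripts low in it. The fold changes of the members are shown with and without this mouse, and other results without it only where stated. The 8 keratinocyte markers marked the tissue as skin, with Krt14 at 1080 to 1570 FPKM (a read level scaled to transcript length and sequencing depth), and skeletal muscle RNA was present as well, with Acta1 at 2260 to 4090 FPKM. Among 9 marker lists, the summed CPM of the 5 neutrophil markers did not overlap between genotypes (77.8 to 181 in TBX20fl/fl;K14-Cre and 187 to 588 in TBX20fl/fl mice). The 588 was the sum of TBX20fl/fl replicate 2. In FPKM the top marker S100a9 did not overlap (42.4 to 131 against 132 to 458), like 7.37% of the 15970 genes compared. The other markers on this list overlapped in FPKM. The part of neutrophil content in the results was not tested.

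No member differed between genotypes past the threshold, an adjusted p-value under 0.05 over all genes. All 10 passed the count filter, and their adjusted p-values in edgeR's quasi-likelihood test ran from 0.498 to 0.866. Of the 17124 genes tested, 0 passed in edgeR (0.0% of all), 0 of 15970 passed in limma on FPKM, and 10 of 17074 passed in DESeq2 (0.0586%), none of them a member. At an unadjusted p under 0.05 edgeR called 0 of the 10 members and 8.36% of all genes (2.45% higher and 5.91% lower in TBX20fl/fl;K14-Cre mice). FPKM did not overlap between genotypes for 0 of the 10 members, against 7.37% of the 15970 genes compared. Estimates were higher for 7 members and lower for 3 in TBX20fl/fl;K14-Cre mice, with a median log2 fold change of 0.43 beside 0.03 for all genes. With the transcript length trend of each mouse removed, the median of the members was 0.11, and without TBX20fl/fl replicate 2 it was 0.23.

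**Figure D1:**
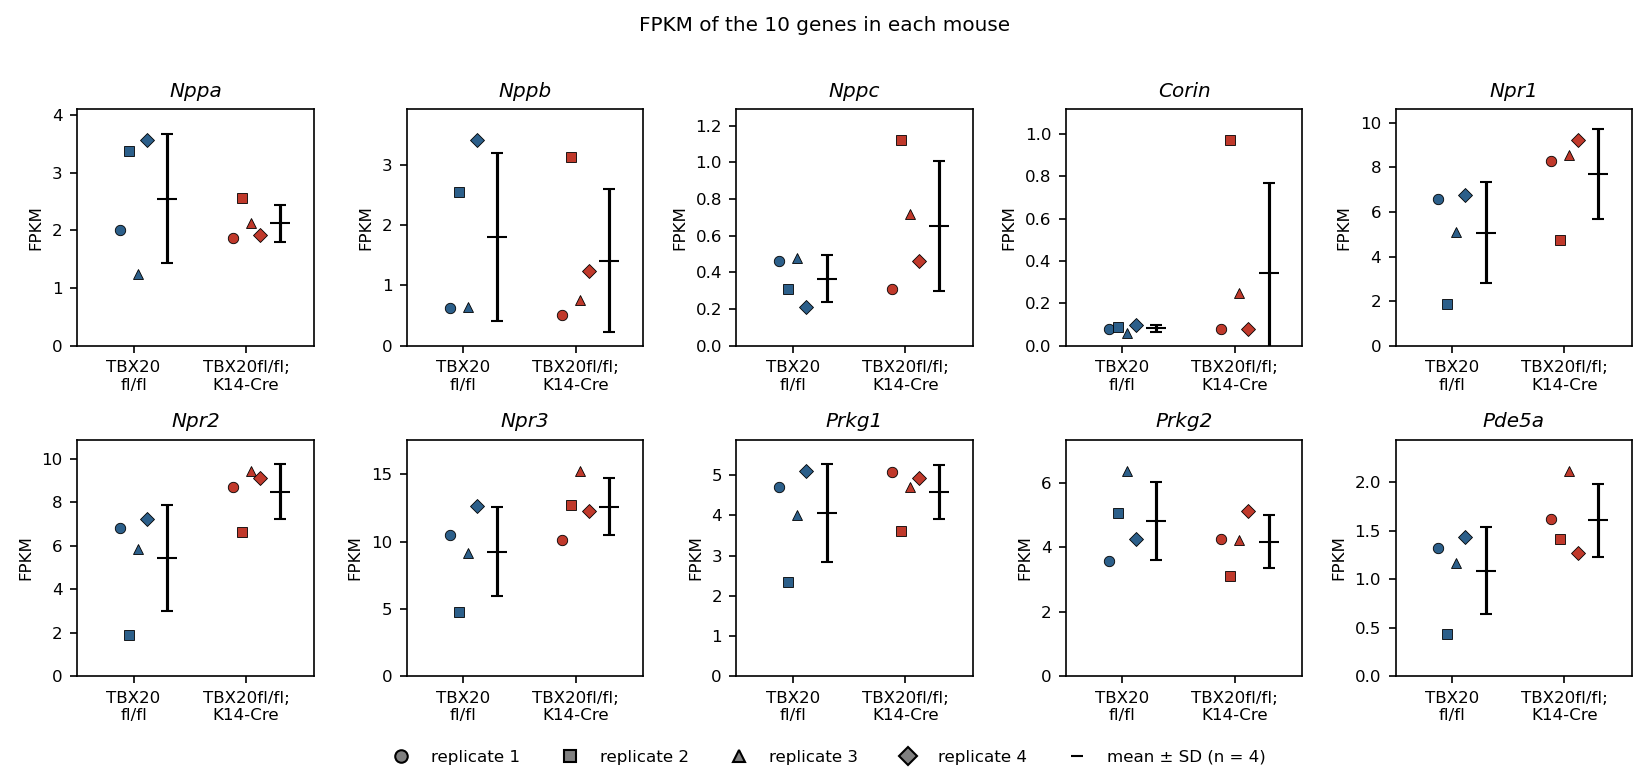
FPKM of each of the 10 genes (vertical axes, starting at 0) in the 8 mice by genotype (horizontal axes), with symbols for the replicate number and a bar for the mean ± SD of 4 mice (the lower bar of Corin in TBX20fl/fl;K14-Cre mice is cut by the axis). The genotypes overlap in every panel, TBX20fl/fl replicate 2 is lowest for all 3 receptors, and TBX20fl/fl;K14-Cre replicate 2 is highest for Corin at 0.97.

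The peptide genes were expressed at low levels, and their estimates did not share a direction. Nppa was at 1.86, 2.56, 2.13 and 1.92 FPKM in replicates 1 to 4 of the TBX20fl/fl;K14-Cre mice and at 2.01, 3.38, 1.24 and 3.56 in those of the TBX20fl/fl mice. The TBX20fl/fl mice spanned the whole range of the others, with replicates 2 and 4 high and replicate 3 low. Between genotypes the log2 fold change was -0.46 (SE 0.39, 95% interval -1.33 to 0.41, edgeR adjusted p = 0.543). It was 0.03 with the length trend removed, -0.13 without TBX20fl/fl replicate 2 and -0.71 without TBX20fl/fl replicate 3. Of the exonic bases of Nppa 61.5% are overlapped by the antisense gene Gm13054, whose reads cannot be told apart where counting ignores strand.

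Nppb, the gene of mouse BNP, was at 0.51, 3.13, 0.76 and 1.24 FPKM in TBX20fl/fl;K14-Cre mice. In TBX20fl/fl mice it was at 0.63, 2.55, 0.65 and 3.41 FPKM. Replicate 2 of each genotype and TBX20fl/fl replicate 4 were above the others, and the genotypes overlapped throughout. These values rest on 8 to 49 counts per mouse. For Nppb the log2 fold change was -0.54 (SE 0.71, 95% interval -2.14 to 1.05, edgeR adjusted p = 0.673), and the interval thus allows large differences in either direction. It was -1.26 without TBX20fl/fl;K14-Cre replicate 2, -0.18 without TBX20fl/fl replicate 2 and -0.15 without TBX20fl/fl replicate 4.

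Nppc was the least expressed of the peptide genes, with 4 to 22 counts per mouse. It was at 0.31, 1.12, 0.72 and 0.46 FPKM in TBX20fl/fl;K14-Cre mice and at 0.46, 0.31, 0.48 and 0.21 in TBX20fl/fl mice. Replicates 2 and 3 of the TBX20fl/fl;K14-Cre mice lay above all TBX20fl/fl mice and replicates 1 and 4 within their range. Its log2 fold change was 0.66 (SE 0.47, 95% interval -0.39 to 1.72, edgeR adjusted p = 0.515), 0.99 with the length trend removed, 0.28 without TBX20fl/fl;K14-Cre replicate 2 and 0.44 without TBX20fl/fl replicate 4.

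Corin (chr5:72299948-72504540) had the largest estimate of the members, and most of it came from a single mouse. FPKM was 0.08, 0.97, 0.25 and 0.08 in TBX20fl/fl;K14-Cre mice and 0.08, 0.09, 0.06 and 0.10 in TBX20fl/fl mice, from 7, 89, 23 and 7 counts and 8, 7, 5 and 9 counts. Replicates 2 and 3 of the TBX20fl/fl;K14-Cre mice were above all others, while replicates 1 and 4 were level with the TBX20fl/fl mice. The estimate for Corin was a log2 fold change of 1.84 (SE 0.82, 95% interval -0.01 to 3.68, edgeR adjusted p = 0.498), and it was 0.50 without TBX20fl/fl;K14-Cre replicate 2. The exact permutation p of the FPKM difference was 0.314.

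Corin is known as a gene of the dermal papilla, the cell cluster at the base of the hair follicle, and the dermal papilla marker Alx4 was high in the same mice. Alx4 was at 0.65, 3.29, 1.05 and 0.74 FPKM in TBX20fl/fl;K14-Cre mice and at 0.54, 0.10, 0.41 and 0.58 in TBX20fl/fl mice. Rspo3 and Enpp2 were also highest in TBX20fl/fl;K14-Cre replicate 2, but close to the other 7 mice (2.74 FPKM against 1.47 to 2.38, and 71.7 against 44.5 to 67.3). Crabp1 (19.2 FPKM) and Prom1 (0.81 FPKM) lay there within the range of the others, which was 15.4 to 39.2 and 0.59 to 1.26. The summed CPM of these 5 markers was 189 to 255 in TBX20fl/fl;K14-Cre and 206 to 237 in TBX20fl/fl mice, and none was at 0 in any mouse. The part of dermal papilla content in the Corin values was not tested.

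The receptor genes were the most expressed members, and all 3 had higher means in TBX20fl/fl;K14-Cre mice without passing the threshold. Npr1 (chr3:90450591-90465928, minus strand) was at 8.28, 4.74, 8.54 and 9.22 FPKM in replicates 1 to 4 of the TBX20fl/fl;K14-Cre mice and at 6.58, 1.85, 5.08 and 6.78 in those of the TBX20fl/fl mice. Replicates 1, 3 and 4 of the TBX20fl/fl;K14-Cre mice were above every TBX20fl/fl mouse, and replicate 2, the lowest of each genotype, made the groups overlap. The means were 7.70 ± 2.01 and 5.07 ± 2.28 FPKM (SD, n = 4 each). The exact permutation p of the Npr1 FPKM difference was 0.171, and 0.314 without TBX20fl/fl replicate 2. For Npr1 the log2 fold change was 0.51 (SE 0.31, 95% interval -0.20 to 1.21, edgeR adjusted p = 0.502). In this fit a decrease by more than 0.20 on the log2 scale thus lay outside the interval, for RNA of the whole skin. The study itself reports lower Npr1 in TBX20fl/fl;K14-Cre mice by RT-qPCR of BNP-injected cheek skin. The reason for the different direction was not tested. Of the exonic bases of Npr1, 11.7% are overlapped by Gm16048 on the opposite strand.

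Npr2 (chr4:43629015-43651437, plus strand) was at 8.68, 6.63, 9.45 and 9.12 FPKM in TBX20fl/fl;K14-Cre mice and at 6.80, 1.87, 5.82 and 7.24 in TBX20fl/fl mice. As for Npr1, replicate 2 was the lowest of each genotype and the only TBX20fl/fl;K14-Cre mouse within the range of the TBX20fl/fl mice. The means were 8.47 ± 1.27 and 5.43 ± 2.45 FPKM (SD, n = 4 each), with a log2 fold change of 0.55 (SE 0.29, 95% interval -0.10 to 1.19, edgeR adjusted p = 0.498) and an exact permutation p of 0.0857.

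Neither the labels nor the study states that mice of the same replicate number belong together, so pairing them was an alternative only. Paired in this way, the TBX20fl/fl;K14-Cre mouse had more Npr1 and more Npr2 in 4 of 4 pairs. The same held for 22.2% of the 15970 genes compared in FPKM. The exact sign-flip p over the pairs was 0.125 for each of the 2 receptor genes, the smallest that 4 pairs can give. In edgeR with a replicate block, the fold change on the log2 scale was 0.55 for Npr1 (95% interval 0.19 to 0.92) and 0.63 for Npr2 (95% interval 0.14 to 1.12), with an adjusted p of 0.405 for each. In this blocked fit 2 of the 10 members had an unadjusted p under 0.05, against 10.1% of all genes (3.52% in their direction), and 0 genes had an adjusted p under 0.05 in edgeR. With the length trend removed as well, the values were 0.36 for Npr1 (95% interval 0.12 to 0.61) and 0.46 for Npr2 (95% interval 0.18 to 0.74), with 2 members and 10.3% of all genes at an unadjusted p under 0.05. Without TBX20fl/fl replicate 2 and without the block, they were 0.28 (95% interval -0.21 to 0.78) and 0.31 (95% interval -0.003 to 0.629), a smaller difference in the same direction.

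Npr3 (chr15:11839896-11907837, minus strand) was the most expressed member in both genotypes. It was at 10.12, 12.68, 15.28 and 12.24 FPKM in TBX20fl/fl;K14-Cre mice and at 10.50, 4.74, 9.14 and 12.65 in TBX20fl/fl mice. TBX20fl/fl replicate 2 was far below the rest, and the remaining mice of both genotypes overlapped. For Npr3 the log2 fold change was 0.40 (SE 0.26, 95% interval -0.18 to 0.98, edgeR adjusted p = 0.507), 0.10 with the length trend removed and 0.20 without TBX20fl/fl replicate 2, and Npr3 was higher in 2 of 4 same-numbered pairs.

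The balance between the receptors, which sets cyclase receptors against the clearance receptor, was described from FPKM, a value per transcript length, and after the values were seen. Npr3 made up 37.4 to 52.7% of the summed receptor FPKM in TBX20fl/fl;K14-Cre mice, against 44.0 to 56.0% in TBX20fl/fl mice, Npr1 19.7 to 30.6% and 21.9 to 27.6%, and Npr2 27.6 to 32.1% and 22.1 to 29.0%. The ratio of Npr1 to Npr2 was 0.715 to 1.01 and 0.873 to 0.989, with 0.989 in TBX20fl/fl replicate 2, where both were low, and the lowest value in TBX20fl/fl;K14-Cre replicate 2. These ranges overlap for every share and ratio.

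**Figure D2:**
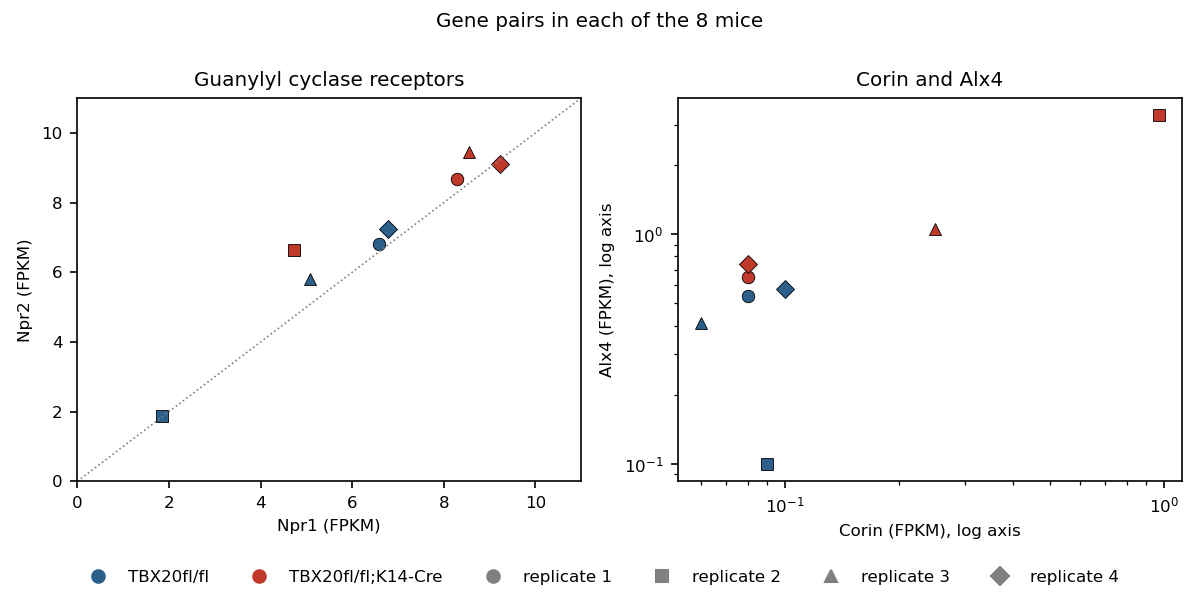
FPKM of Npr1 and Npr2 (left, linear axes with a dotted line of equal values) and of Corin and Alx4 (right, log axes) in each of the 8 mice, with colour for the genotype and symbol for the replicate number. Both receptors are lowest in TBX20fl/fl replicate 2 (1.85 and 1.87 FPKM). Npr1 is highest in TBX20fl/fl;K14-Cre replicate 4 (9.22) and Npr2 in TBX20fl/fl;K14-Cre replicate 3 (9.45). TBX20fl/fl;K14-Cre replicate 2 (4.74 and 6.63) is farthest from the dotted line, and it is highest for both Corin and Alx4.

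Over 13297 genes averaging 50 counts or more, the profile of Npr1 over the 8 mice was most like those of Sema6c, Nr1d1, Abcc9, Mmrn2 and Cdh5. Likeness was measured as the root mean square difference of log2 CPM centred on the mean of the mice, which was 0.0798, 0.083, 0.0866, 0.0961 and 0.0981 for these genes and had a median of 0.57 over all. Npr2 ranked 26 at 0.146, and the next closest member was Pde5a, which ranked 1668 at 0.296. Without TBX20fl/fl replicate 2 the 5 genes ranked 2, 6, 1, 14 and 16, Npr2 ranked 73, and the next closest member was Prkg1 at rank 711, with Pde5a at 3951. All genes share the same 8 libraries, so these values are a description. The summed CPM of the 10 endothelial markers, which include Cdh5, was 287 to 485 in TBX20fl/fl;K14-Cre and 299 to 439 in TBX20fl/fl mice. Of these markers 7 had a higher and 3 a lower estimate in TBX20fl/fl;K14-Cre mice. Replicate 2 had the lowest endothelial sum of each genotype, as it had the lowest Npr1 and Npr2. TBX20fl/fl;K14-Cre replicate 2 also had the lowest keratinocyte, skeletal muscle, fibroblast and Schwann cell sums of its genotype. TBX20fl/fl replicate 2 was not the lowest of its genotype for those. The part of endothelial content in the Npr1 values was not tested.

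The kinase genes had estimates of opposite sign, and neither passed the threshold. Prkg1 (chr19:30564487-31765268), the gene of the kinase found in smooth muscle and sensory neurons among other cells, was at 5.09, 3.62, 4.70 and 4.94 FPKM in TBX20fl/fl;K14-Cre mice and at 4.72, 2.35, 4.02 and 5.12 in TBX20fl/fl mice. Replicate 2 was again the lowest of each genotype, and the groups overlapped. For Prkg1 the log2 fold change was 0.06 (SE 0.18, 95% interval -0.35 to 0.46, edgeR adjusted p = 0.866), the narrowest interval of the members, and its direction turned with the length trend removed (-0.38, 95% interval -0.78 to 0.01) and without TBX20fl/fl replicate 2 (-0.05).

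Prkg2 (chr5:98929773-99037375), which encodes the membrane-bound kinase, went the other way in TBX20fl/fl replicate 2. It was at 4.26, 3.11, 4.21 and 5.12 FPKM in TBX20fl/fl;K14-Cre mice and at 3.57, 5.07, 6.38 and 4.25 in TBX20fl/fl mice. TBX20fl/fl replicate 3 was the highest and TBX20fl/fl;K14-Cre replicate 2 the lowest, with full overlap between. The genotype difference was a log2 fold change of -0.47 (SE 0.26, 95% interval -1.05 to 0.12, edgeR adjusted p = 0.499) and -0.24 without TBX20fl/fl replicate 2. The ratio of Prkg2 to Prkg1 was 0.837 to 1.04 in TBX20fl/fl;K14-Cre mice, against 0.756 to 2.16 in TBX20fl/fl mice, with the highest ratio in TBX20fl/fl replicate 2.

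Pde5a (chr3:122729158-122859374), whose product breaks down cGMP, was at 1.62, 1.41, 2.12 and 1.27 FPKM in TBX20fl/fl;K14-Cre mice and at 1.32, 0.43, 1.17 and 1.43 in TBX20fl/fl mice. The groups overlapped, with TBX20fl/fl replicate 2 alone far below the rest. For Pde5a the log2 fold change was 0.46 (SE 0.28, 95% interval -0.17 to 1.08, edgeR adjusted p = 0.501), and it was 0.11 with the length trend removed and 0.25 without TBX20fl/fl replicate 2.

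**Figure D3:**
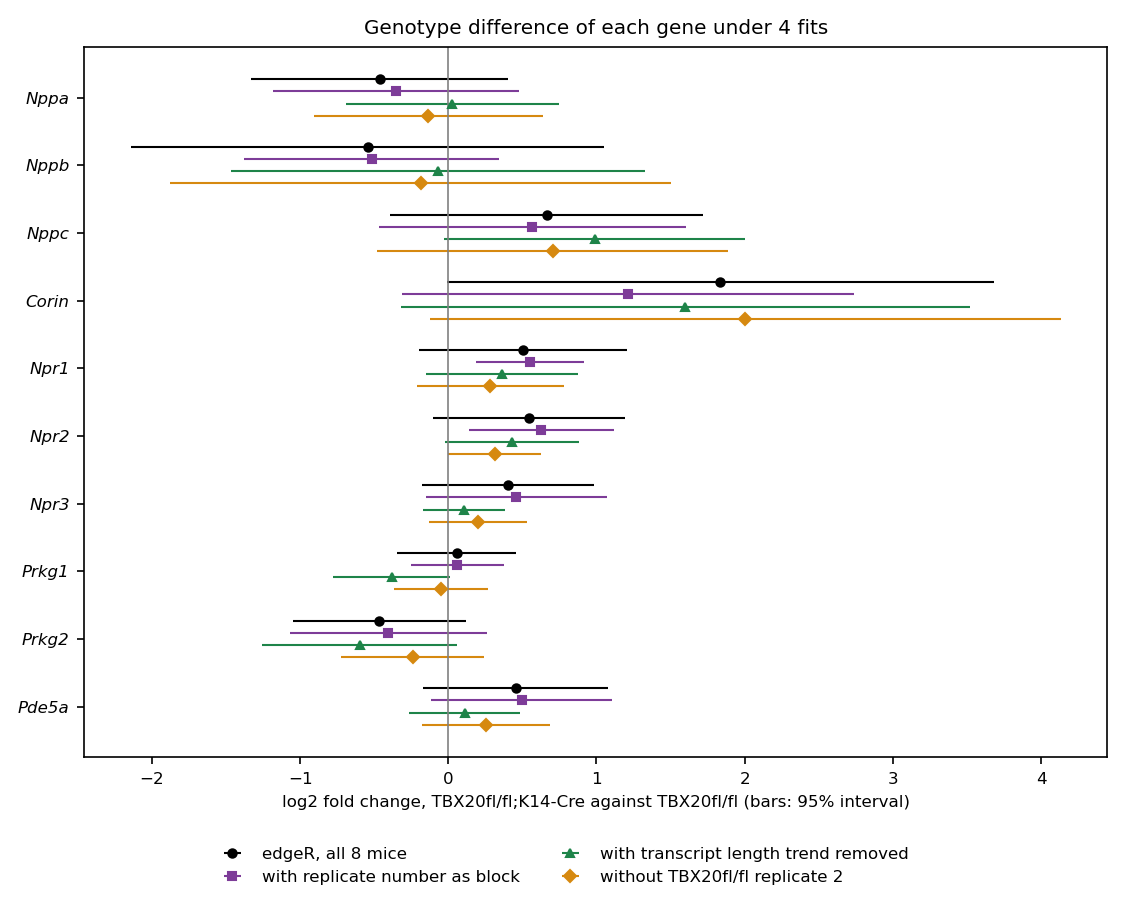
Log2 fold change of each gene between TBX20fl/fl;K14-Cre and TBX20fl/fl mice (horizontal axis, bars for the 95% interval) in edgeR with all 8 mice, with the replicate number as a block, with the transcript length trend removed and without TBX20fl/fl replicate 2. The intervals of Npr1 and Npr2 lie above 0 with the block, and the estimates of Npr3 and Pde5a move from 0.40 and 0.46 to 0.10 and 0.11 with the length trend removed.

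In order of mean FPKM, both genotypes had Npr3 first, then Npr2 and Npr1, then the kinases, and Nppc and Corin last. In TBX20fl/fl;K14-Cre mice Npr3 (12.6 ± 2.12 FPKM, SD, n = 4) did not overlap with Npr2 (8.47 ± 1.27), and Prkg2 (4.17 ± 0.82) did not overlap with Nppa (2.12 ± 0.32), while all other neighbours overlapped. In TBX20fl/fl mice the ranges of all neighbours overlapped except those of Nppc (0.365 ± 0.128) and Corin (0.0825 ± 0.0171). Without TBX20fl/fl replicate 2 the order was the same, and Npr3 and Npr2 (9.14 to 12.65 against 5.82 to 7.24 FPKM), Prkg1 and Nppa (4.02 to 5.12 against 1.24 to 3.56) and Pde5a and Nppc (1.17 to 1.43 against 0.21 to 0.48) did not overlap either. Prkg1 and Prkg2, and Pde5a and Nppb, changed places between the genotypes, within overlapping ranges.

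The position of TBX20fl/fl replicate 2 relative to the other 7 mice went with transcript length for some members and departed from it for others. Its log2 CPM minus their median was 2.07 for Nppb and 1.18 for Nppa, which have transcripts of 0.75 and 0.81 kb. It was -1.35 for Npr1 (4.0 kb), -1.44 for Npr2 (3.79 kb), -1.25 for Npr3 (5.8 kb) and -1.17 for Pde5a (6.71 kb). In 20 bins of genes by length, the median ran from 1.47 at 0.642 kb to -1.60 at 9.16 kb, and it was -0.54 at 3.78 kb and -0.67 at 4.13 kb, so that Npr1 and Npr2 were lower in this mouse than most genes of their length. Prkg2 (1.02 at 3.27 kb), Corin (0.48 at 4.66 kb), Prkg1 (-0.52 at 6.87 kb) and Nppb were higher than the median of their length. Nppc (-0.06 at 0.99 kb) was lower. The part of RNA quality or library preparation in this was not tested.

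**Figure D4:**
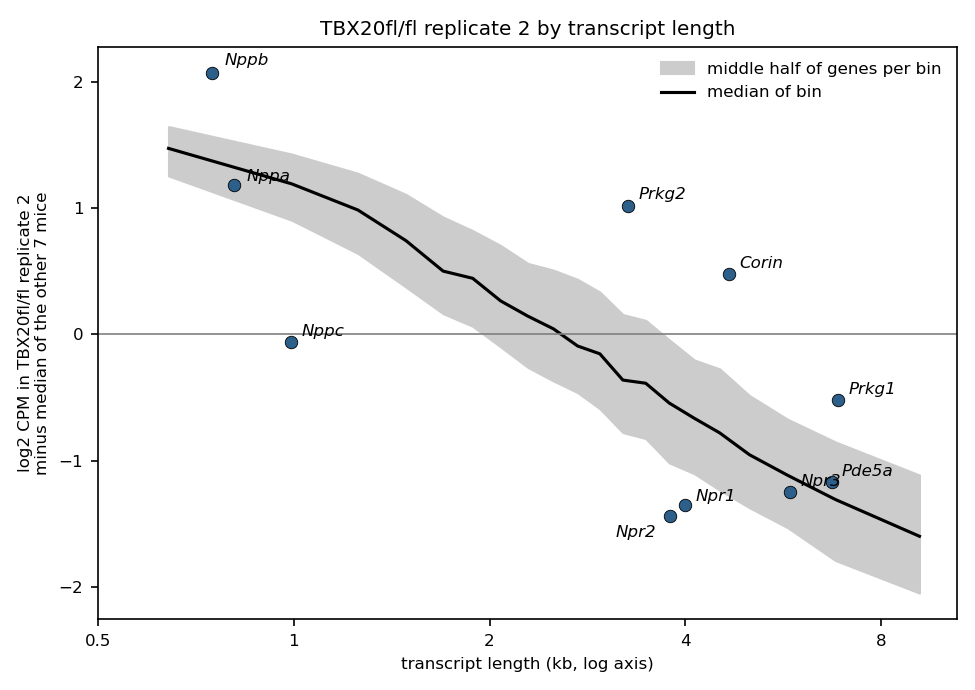
Log2 CPM of TBX20fl/fl replicate 2 minus the median of the other 7 mice (vertical axis) against transcript length in kb (horizontal log axis), with the median and the interquartile range of genes in 20 length bins (line and band) and the 10 genes as points. The line falls from 1.47 to -1.60, Nppb and Nppa lie at 2.07 and 1.18 on the left, and Npr1 and Npr2 lie below the band.

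The wider cGMP pathway was described from 52 further genes chosen by role, of which 45 passed the count filter. In edgeR 0 of them had an adjusted p under 0.05, and 1 higher and 4 lower had an unadjusted p under 0.05 (11.1% of the 45, against 8.36% of all genes). This count was 9 of the 45 with the replicate block (6 higher and 3 lower, 20.0% against 10.1% of all genes, smallest edgeR adjusted p = 0.405), with Pde3a, Cngb3 and Rgs2 the 3 genes in both counts. It was 2 without TBX20fl/fl;K14-Cre replicate 1, without TBX20fl/fl;K14-Cre replicate 3 or without TBX20fl/fl replicate 3. Estimates were higher in TBX20fl/fl;K14-Cre mice for 25 and lower for 20, and 52.5% of all genes had a higher estimate. The median log2 fold change of the 45 was 0.13, -0.02 with the length trend removed and 0.03 without TBX20fl/fl replicate 2. Of the 10 tested phosphodiesterase genes 7 had a higher estimate, and 6 had one with the length trend removed or without TBX20fl/fl replicate 2. At an unadjusted p under 0.05 edgeR called 1 of them higher and 1 lower. With the length trend removed it called 0 higher and 3 lower, against 547 higher and 970 lower of all 17124 genes. The 3 genes of other receptor ligands had lower estimates with a median log2 fold change of -0.61, but 1 was higher in either alternative, with medians of -0.06 in each.

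Pde3a, which encodes a phosphodiesterase inhibited by cGMP, was the gene with a higher value at an unadjusted p under 0.05. It was at 1.30, 1.61, 1.70 and 1.43 FPKM in TBX20fl/fl;K14-Cre and 0.97, 0.35, 1.04 and 1.05 in TBX20fl/fl mice, without overlap. The log2 fold change was 0.70 (SE 0.24, edgeR adjusted p = 0.498), and 0.51 without TBX20fl/fl replicate 2, but 0.16 with the length trend removed. Guca2a, the gene of guanylin, was at 4.57, 4.16, 4.08 and 4.53 FPKM against 5.29, 8.18, 6.61 and 4.80, also without overlap. Its log2 fold change was -0.73 (edgeR adjusted p = 0.498), -0.41 without TBX20fl/fl replicate 2 and -0.06 with the length trend removed. Pde3a and Guca2a were named for their unadjusted p, and 7.37% of the 15970 genes compared in FPKM did not overlap either.

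Rgs2, a regulator of G protein signalling that the cGMP-dependent kinase phosphorylates, was at 16.9 to 27.7 FPKM in TBX20fl/fl;K14-Cre and 21.4 to 36.1 in TBX20fl/fl mice, with overlap. It was lower in 4 of 4 same-numbered pairs, as were 10.2% of all genes compared in FPKM, with a log2 fold change of -0.62 that was -0.57 (95% interval -0.94 to -0.20) with the replicate block and -0.32 without TBX20fl/fl replicate 2. Pde1b was at 2.03 to 2.91 against 2.29 to 3.43 FPKM (log2 fold change -0.41), and the channel gene Cngb3 had only 3 to 22 counts per mouse (log2 fold change -1.49). The adjusted p of each was 0.498 in edgeR.

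The most expressed genes of the roles differed widely in level. Ide, the gene of an insulin-degrading enzyme that also cleaves natriuretic peptides, had a mean of 69.7 FPKM over the 8 mice (log2 fold change -0.07). Rhoa, a small GTPase that the kinase phosphorylates, had 222 FPKM (-0.10). Pde3b had 9.67 FPKM (0.33) and the exporter gene Abcc5 6.76 (0.33). The soluble cyclase subunit Gucy1b1 had 4.64 FPKM (-0.16) and the endothelial nitric oxide synthase Nos3 3.17 (0.14), while the membrane cyclase Gucy2g (0.358 FPKM, -0.35) and the channel gene Cngb1 (0.149 FPKM, 0.59) were near the bottom. Npr1 and Npr2, at 6.38 and 6.95 FPKM over the 8 mice, had higher levels than any other gene of a membrane guanylyl cyclase.

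**Figure D5:**
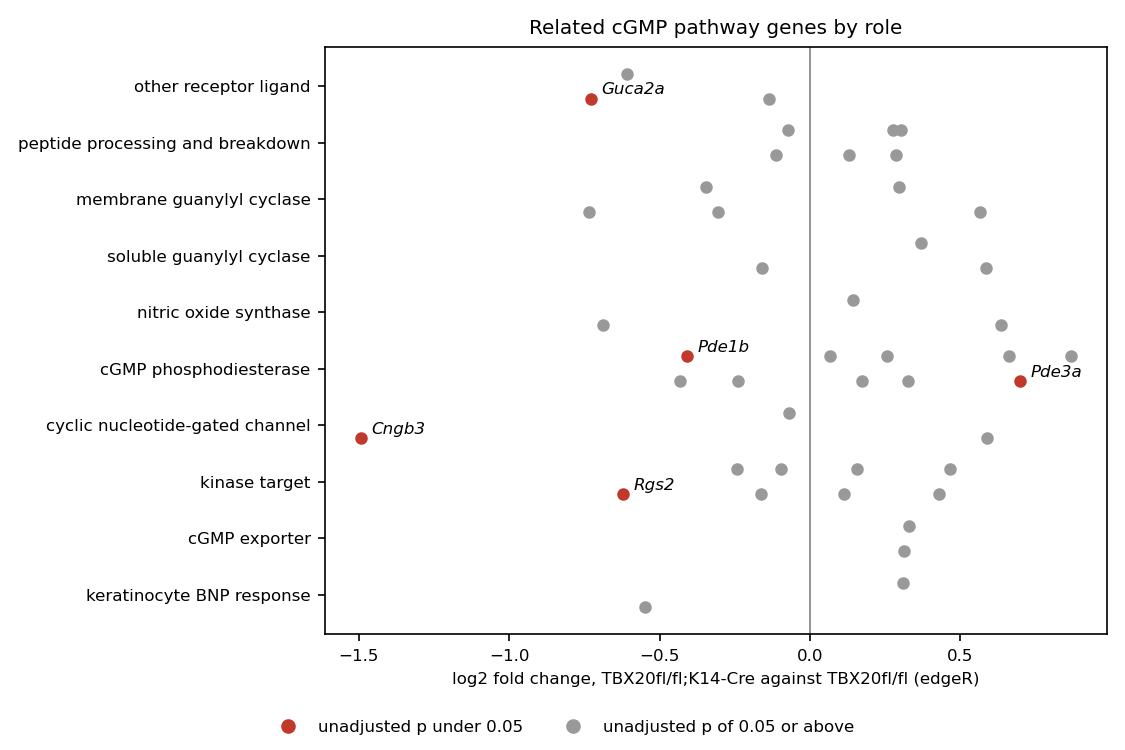
Log2 fold change in edgeR (horizontal axis) of the 45 tested genes of the wider cGMP pathway, grouped by role (vertical axis), with red points for an unadjusted p under 0.05. The 5 red points are Guca2a, Pde1b, Pde3a, Cngb3 and Rgs2, of which Pde3a alone lies above 0.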

How the data were processed

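The authors sequenced skin RNA of 8 mice as single reads of 50 bases, with filtering by SOAPnuke and alignment by HISAT. The authors deposited an estimated count per gene, not normalized, of which 69.0% above 0 were not whole, and FPKM values made on the Dr. Tom platform. The counting program and its strand setting are not given in the sources used here. Another 16 columns of values per mouse, 40 columns of group means and the log2 fold changes and p-values of 17 comparisons by the authors were not used.

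Counts were rounded, genes with a sum of 10 counts or more were tested, and genotypes were compared after TMM scaling with edgeR 4.0.16 (quasi-likelihood test, R 4.3.3), with Benjamini-Hochberg adjustment over all genes. FPKM was compared with limma 3.58.1 on log2(FPKM + 1) where mean FPKM reached 0.1, and per gene with an exact permutation test (two-sided, 70 assignments), whose smallest p is 0.0286. DESeq2 1.42.0, other scalings and filters, the replicate block, a transcript length offset (from the deposited counts and FPKM, fitted on genes averaging 50 counts or more) and leaving out each mouse were alternatives. Intervals of fold changes rest on the spread between mice, and the floor of 3 counts covers counting error only. The edgeR, limma and DESeq2 comparisons were also run on simulated data, with an outcome that is not reported here. Python 3.11.15 with pandas 2.3.3 and scipy 1.17.1 was used for summaries.

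Replicate numbers come from the labels, and the mice are different animals. Deviations of same-numbered mice correlated at 0.16 to 0.405 in the 4 pairs, against -0.518 to 0.426 in the 12 other pairs (mean -0.0888), of which 3 were above the lowest same-numbered pair, and 5 of the 8 mice were matched best by their own number. The members, the pathway and marker lists, the tests and the alternatives were chosen with earlier results of these data known. Named genes were the members, Tbx20, the pathway genes with an unadjusted edgeR p under 0.05 or the highest mean FPKM of their role (1 is not reported here), the 5 genes most like Npr1, and the top marker of a list where used; Alx4 and the other dermal papilla markers were named after their values were seen.

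Gene positions are those of RefSeq on GRCm38.p6. The deposited table places Nppa and Nppb partly on an unplaced scaffold and gives another strand for Npr1, Corin and Prkg1, and its positions were not used. One listed pathway gene was matched by an older symbol.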

Additional observations from a re-analysis of the deposited data

How the results depend on the processing

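No alternative brought a member or a gene of the wider pathway past the threshold. Of the 45 wider pathway genes, 2 to 9 had an unadjusted p under 0.05 across the edgeR alternatives (2 with library totals only). DESeq2 called 10 of all genes where edgeR called 0, with 1954 at an unadjusted p under 0.05. The replicate block changed no call at an adjusted p under 0.05. Of 178 log2 fold changes of the members under an alternative, 170 kept their direction and 8 turned it. Nppa was at 0.03 with the length trend removed and 0.11 with the replicate block as well, and Nppb was at 0.02 with both. Prkg1 was at -0.38 with the length trend removed, -0.36 with the replicate block as well and -0.19 with the trend removed and without TBX20fl/fl replicate 2, an alternative chosen after seeing the data. Leaving out 1 mouse gave log2 fold changes of -0.05 to 0.16 for Prkg1, with values below 0 without TBX20fl/fl;K14-Cre replicate 1 (-0.01) and without TBX20fl/fl replicate 2 (-0.05). FPKM differences ran from -0.973 to 0.133 for Nppb (above 0 without TBX20fl/fl replicate 4) and from -0.0325 to 0.891 for Prkg1 (below 0 without TBX20fl/fl replicate 2). The cause was not tested. A stricter expression filter removed Nppc and Corin. Scaling by library totals moved the median log2 fold change of all genes by 0.146 and turned no member's direction. Nppc had as few as 4 counts in a mouse, Corin 5 and Nppb 8, which limits the precision of their values.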
